A study of Mus musculus with 20 samples.

Results

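Chemokines and their receptors were examined in RNA of 20 mouse nerve tumors. The set holds the 57 genes, of 24062 in the deposited count table, that carry a Ccl, Cxcl, Ccr, Cxcr or Ackr symbol with a number, together with Cx3cl1, Cx3cr1, Xcl1, Xcr1 and Ccrl2. Of these, 34 encode ligands and 23 encode receptors, atypical receptors included. The symbols alone chose the members. The 20 libraries came from 12 neurofibromas, 4 paraspinal tumors and 4 GEM-PNST, tumors of the peripheral nerve sheath in engineered mice. Every mouse was of the C57BL/6J strain and Nf1fl/fl; DhhCre, so that Cre driven from the Dhh gene, active in the Schwann cell lineage, removes Nf1. The neurofibroma mice are labelled with this genotype alone, and the paraspinal and GEM-PNST mice are labelled Ink4a/Arf+/- in addition. The labels used here name no drug and give no age. The paraspinal tumors fall into subgroup 1 and subgroup 2 (2 libraries each), which the labels call sub-clusters, so the subgroups may rest on these expression values.

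Chemokines are small secreted proteins that guide the migration of leukocytes and other cells. They bind G protein-coupled receptors that signal through inhibitory G proteins, while atypical receptors bind chemokines and remove or present them without that signaling. In nerves with Nf1-deficient Schwann cells, macrophages, mast cells, T cells and dendritic cells are known to accumulate, and each of these cell types carries its own receptors.

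The authors' alignment names begin with a run number, which is taken here as the sequencing run. By this number all paraspinal and GEM-PNST libraries share 1 run, while neurofibroma libraries 1 to 6 and 7 to 12 form 2 others. Run and genotype follow stage, so against neurofibroma these cannot be told apart. Each neurofibroma library holds 9900759 to 17594164 counts, each paraspinal library 18474071 to 24314222 and each GEM-PNST library 16282605 to 22218382. The labels do not state separate animals. The sample codes of neurofibroma libraries 8 and 9 differ only in letters. The same holds for GEM-PNST library 2 and library 1 of paraspinal subgroup 1, and for libraries 1 and 2 of paraspinal subgroup 2. The fits treat all libraries as independent. So p-values measure the spread between libraries, which may be technical in part. Levels are CPM, counts scaled to 1000000 per library, after scaling by TMM factors over all 20 libraries, and values of single libraries are given in library order, subgroup 1 before subgroup 2. In bulk RNA, fewer cells of a type and less RNA per cell cannot be told apart.

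Some libraries stand apart. GEM-PNST library 1 had a summed level of 8 dendritic cell markers of 3856.9 CPM, against 45.7 to 135.5 CPM in paraspinal libraries. Of these, Irf8 had 2386.4 CPM, and without it the sum was 1470.5 CPM. The list was not uniform: 6 of the 8 markers, Clec9a (333.1 CPM) among them, were highest in library 1 of the GEM-PNST libraries, while Cd209a (0.269 and 99.2 CPM in libraries 1 and 3) and Clec10a (11.6 and 68.8 CPM) were highest in library 3. GEM-PNST library 3 had 41661.3 CPM of 14 salivary gland markers, Bpifa2 alone at 27905.7 CPM, where the other GEM-PNST libraries summed to 1.48, 7.0 and 3.46 CPM. It also held the most T and NK cell transcripts of its stage (362.0 CPM over 14 markers, against 45.2, 5.22 and 98.8 CPM). Markers of Schwann cells, the lineage in which DhhCre is active, summed to 215.9, 74.0, 1217.5 and 132.6 CPM in GEM-PNST libraries, against 7568.3 to 17161.1 CPM in paraspinal libraries. Macrophage markers summed to 163.3 to 1970.4 CPM in neurofibroma, 630.4 to 2177.1 CPM in paraspinal and 1733.9 to 6348.7 CPM in GEM-PNST libraries. Neurofibroma library 4 had 12.9 CPM of sensory neuron markers, where the other neurofibromas had 753.0 to 5373.0 CPM. No marker of macrophages, dendritic cells, T and NK cells or Schwann cells was at 0 in a whole stage, and in GEM-PNST libraries 1 of the 14 salivary gland markers (Smr2) was. The part of other cell types in the results was not tested.

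Sequences upstream of 5 ligand genes are shown because these genes lie in 2 gene clusters. The members of the first cluster were all higher than in neurofibroma, and those of the second differed in direction. Ccl22, Cx3cl1 and Ccl17 lie side by side on chromosome 8 (94745590 to 94812036), and all 3 were higher in paraspinal than in neurofibroma libraries. For Ccl17 and Ccl22 this rested on paraspinal subgroup 2 library 1, without which the log2 fold changes were -0.77 and -0.01. Cx3cl1 stayed higher without that library, so the 3 genes did not move together. Cxcl9, Cxcl10 and Cxcl11 lie side by side on chromosome 5 (92321347 to 92365485), and their levels differed in direction. The bases come from RefSeq (build GRCm38.p6) and end at the annotated start of each gene. For Ccl22 and Cx3cl1 they stop where the GENCODE gene begins, which is upstream of the RefSeq start. Capitals mark matches to the interferon-stimulated response element (ISRE, the letters GAAA, any NN and GAAA again) or to the NF-kappaB consensus, both strands searched, and these matches may overlap each other. The windows are chr8:94745434-94745589 for Ccl22, chr8:94771930-94772008 for Cx3cl1 and chr8:94810203-94810452 for Ccl17, all on the plus strand. For Cxcl9 and Cxcl10 they are chr5:92328080-92328329 and chr5:92348890-92349139, on the minus strand.
Ccl22: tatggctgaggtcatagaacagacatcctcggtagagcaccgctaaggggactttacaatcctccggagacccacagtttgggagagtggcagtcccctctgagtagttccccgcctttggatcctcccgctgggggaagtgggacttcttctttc
Cx3cl1: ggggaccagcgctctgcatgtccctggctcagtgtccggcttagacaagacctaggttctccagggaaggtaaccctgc
Ccl17: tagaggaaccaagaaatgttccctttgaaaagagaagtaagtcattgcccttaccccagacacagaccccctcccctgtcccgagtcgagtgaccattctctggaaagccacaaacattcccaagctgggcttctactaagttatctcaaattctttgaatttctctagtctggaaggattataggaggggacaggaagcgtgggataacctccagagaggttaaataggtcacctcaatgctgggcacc
Cxcl9: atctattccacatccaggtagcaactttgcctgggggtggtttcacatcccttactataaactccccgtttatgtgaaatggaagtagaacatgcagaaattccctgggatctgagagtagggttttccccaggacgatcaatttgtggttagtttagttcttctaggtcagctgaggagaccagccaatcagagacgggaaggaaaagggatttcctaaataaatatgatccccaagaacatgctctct
Cxcl10: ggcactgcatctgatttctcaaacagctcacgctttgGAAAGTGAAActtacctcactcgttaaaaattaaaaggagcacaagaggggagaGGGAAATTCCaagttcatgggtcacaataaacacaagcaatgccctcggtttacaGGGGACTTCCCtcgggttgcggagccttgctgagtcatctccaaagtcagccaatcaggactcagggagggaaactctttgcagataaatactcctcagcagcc

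In the 250 bases before the RefSeq start, Cxcl10 held an ISRE match that begins 213 bases upstream and NF-kappaB matches that begin 159, 104 and 103 bases upstream. The windows of the other 4 genes held no match to these letters. Over 32851 RefSeq promoters, 7.25% held the NF-kappaB consensus and 2.98% the ISRE in the same window. Of 42 members with an entry, 11 held the NF-kappaB consensus (Ackr2, Ccl1, Ccl20, Ccl9, Ccr1, Ccr3, Ccrl2, Cxcl1, Cxcl10, Cxcl2 and Cxcl3) and 3 the ISRE (Ccl19, Cxcl10 and Cxcl14). A match is a string of letters and was not tested as a binding site.

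Compared per kilobase of exon, the ligand with the highest median differed between stages. Ccl11 (eotaxin, which attracts eosinophils) led in neurofibroma, with a median of 153.8 CPM per kilobase (range 21.6 to 288.9), and in paraspinal libraries, with 228.1 (78.5 to 372.0). In GEM-PNST libraries Ccl8, a monocyte attractant, had 81.7 CPM per kilobase (9.16 to 645.6) and Cxcl16 had 64.9 (33.7 to 176.3). These ranges overlap, so the order of the pair is not resolved. Among receptors Ackr1 led in neurofibroma (46.5, range 17.4 to 79.2) and paraspinal (41.9, range 27.3 to 50.1) libraries. In GEM-PNST libraries Cxcr4 had 63.0 CPM per kilobase (9.74 to 101.3), Ccr1 had 26.0 (6.44 to 54.3) and Ackr1 had 6.44 (2.58 to 11.8).

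**Figure D1:**
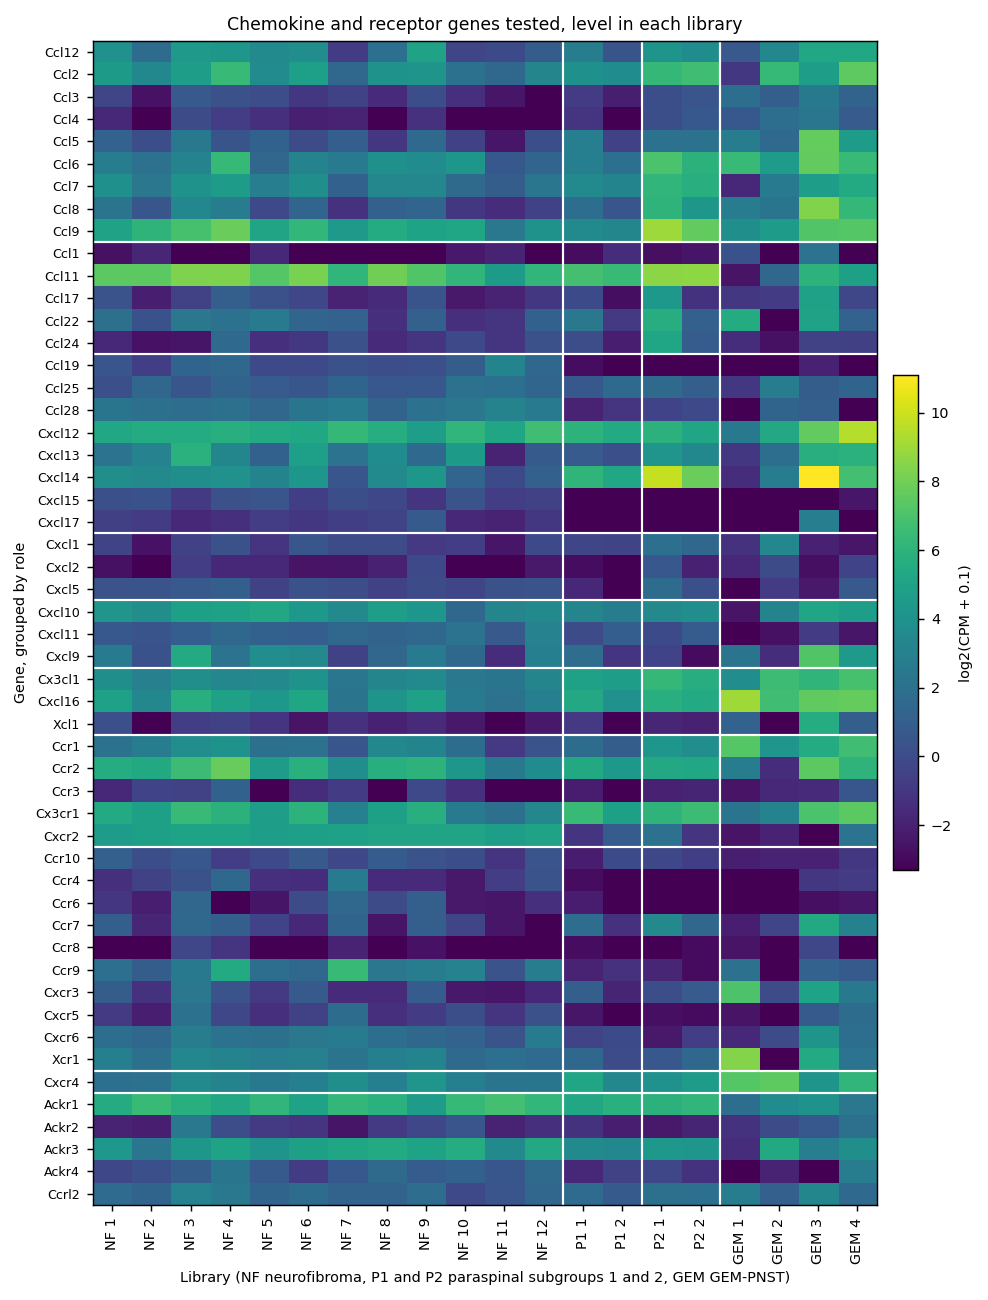
Level of each of 52 tested genes (rows, grouped by role, white lines between groups) in each of the 20 libraries (columns), as log2(CPM + 0.1). Cxcr2 is bright in all 12 neurofibroma columns and dark elsewhere, and the GEM-PNST columns differ from each other more than the paraspinal ones do.

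Of the 57 genes, 53 had enough counts to test. Ccl20, an epithelial ligand, had 3 counts over all libraries, Ccl26, an eotaxin, had 8, Cxcr1, a neutrophil receptor, had 14, and Cxcl3, a neutrophil attractant, had 75, of which 66 lay in 1 library. Another 9 genes of the family do not match the symbol rule, and 4 of them were tested (Pf4, Ppbp, Ccl27a and Cklf). Ccl21a, Ccl21b, Ccl21c and Ccl27b were listed at 0 counts, and Ccr1l1 had at most 1.21 CPM. Genes were called by edgeR's quasi-likelihood test at an adjusted p of 0.05, with Benjamini-Hochberg adjustment over all genes.

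Between GEM-PNST and paraspinal libraries, which share a run and a genotype label, 6 of the 53 genes were higher (Ackr2, Ccr1, Cxcl16, Cxcr3, Cxcr5 and Xcl1) and 2 were lower (Ackr1 and Cxcl11). Of all genes tested, 5.5% were higher and 10.9% lower, 16.4% in either direction. The members' median log2 fold change was 1.29, against -0.01 over all genes. No call of the 8 passed in all 19 alternative settings, and none passed against paraspinal subgroup 2 alone. Without subgroup 1 library 1 or 2 the counts were 0 higher and 1 lower, and without subgroup 2 library 1 or 2 they were 2 and 1, and 1 and 1. Without GEM-PNST libraries 1, 2, 3 and 4 in turn, 5, 10, 4 and 1 genes were higher and 1, 2, 2 and 1 lower.

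Between paraspinal and neurofibroma libraries 11 of the 53 genes were higher and 13 lower, where 30.6% and 30.2% of all genes were called (60.8% together). The medians were equal, at -0.03 for the members and for all genes. Ligands of myeloid cells and of T cells were among the higher genes, while 6 of 10 receptors of lymphocytes and dendritic cells were lower. Without paraspinal subgroup 2 library 1 only 3 genes were higher, and 7 of the 24 calls passed in all alternatives (Ccl19, Ccl28, Ccr9, Cx3cl1, Cxcr2, Cxcr4 and Cxcr6).

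Between GEM-PNST and neurofibroma libraries 20 of the 53 genes were higher and 10 lower, where 35.4% and 38.8% of all genes were called (74.2% together). The members' median log2 fold change was 0.98, against -0.15 over all genes. In all alternatives 14 of the 30 calls passed. Without GEM-PNST libraries 1 and 3 together 14 genes were higher and 9 lower. The comparisons share libraries with each other, so their calls are not independent.

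**Figure D2:**
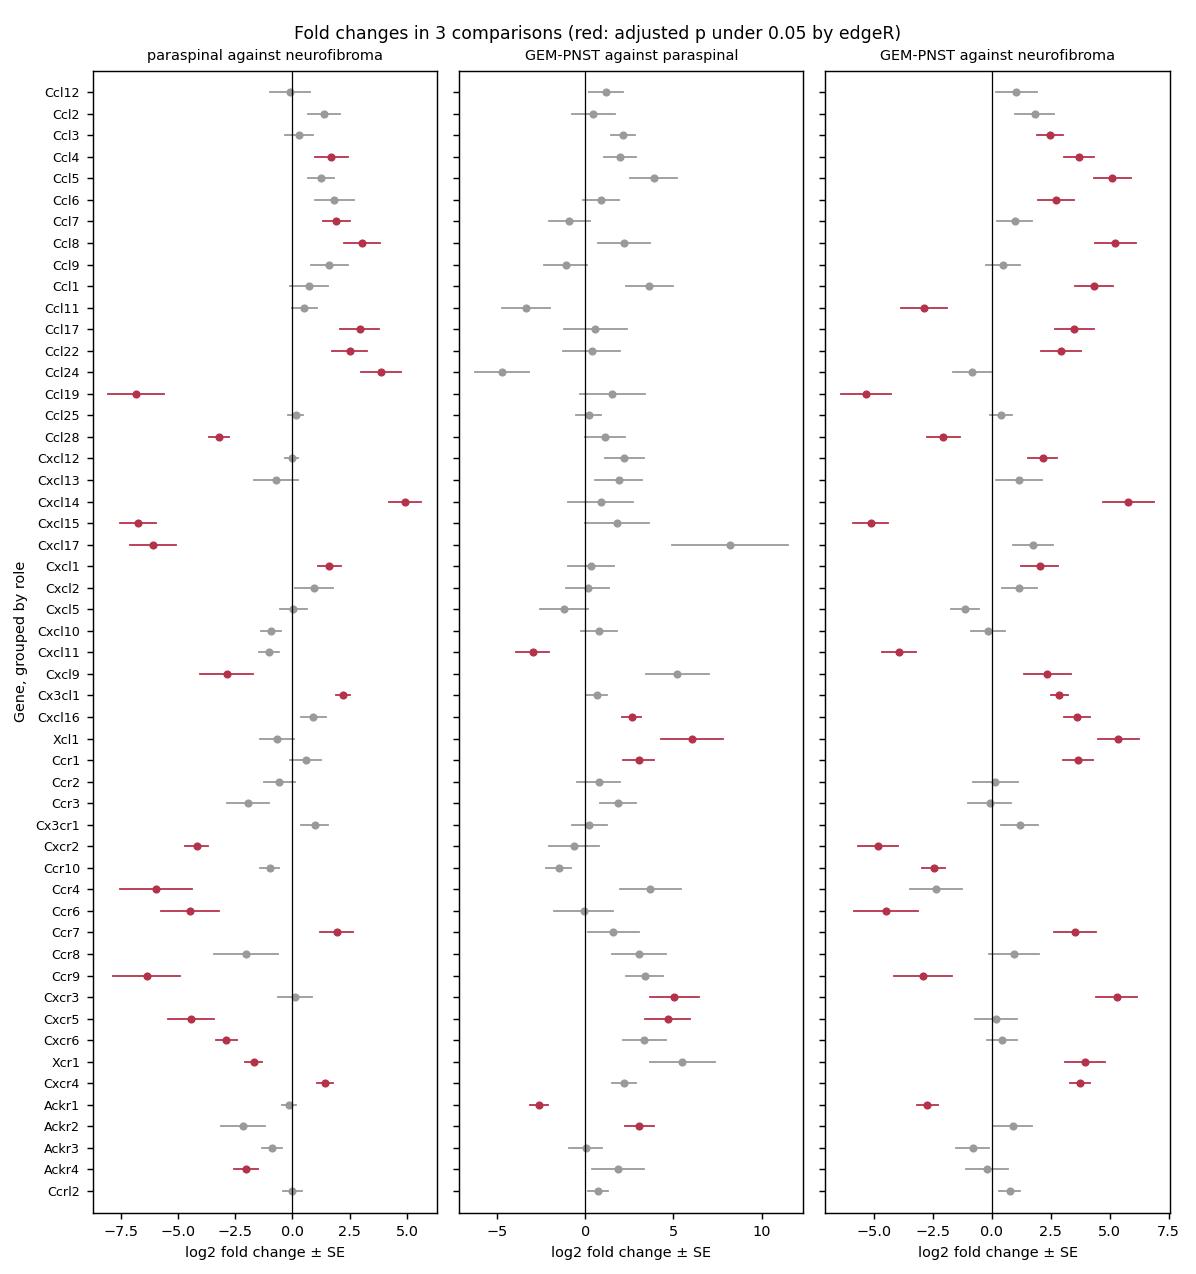
log2 fold change (points) with its standard error (bars) for 52 of the tested genes in 3 comparisons, each with its own axis range. Red marks genes past the threshold: 8 where GEM-PNST is set against paraspinal, and against neurofibroma 24 for paraspinal and 30 for GEM-PNST.

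Among the 9 CC ligands that act on monocytes and macrophages, 5 were higher in GEM-PNST than in neurofibroma libraries (Ccl3, Ccl4, Ccl5, Ccl6 and Ccl8), 3 were higher in paraspinal than in neurofibroma libraries (Ccl4, Ccl7 and Ccl8) and none passed between GEM-PNST and paraspinal. Of all genes 35.4%, 30.6% and 5.5% were higher in these comparisons, so the paraspinal count is near the share over all genes. Ccl4, which attracts monocytes and T cells (chromosome 11, 83662584 to 83664683), had 1.48, 3.66, 4.95 and 1.69 CPM in GEM-PNST libraries and 0.0 to 0.888 CPM in neurofibroma (median 0.147). Every GEM-PNST library lay above every neurofibroma, with a log2 fold change of 3.70 (SE 0.63, adjusted p = 1.58e-05). Ccl3, its neighbor and a ligand of Ccr1, had 3.56, 1.99, 5.64 and 2.33 CPM against 0.0 to 1.55 CPM (median 0.518), again with no overlap. Its difference on the log2 scale was 2.48 (SE 0.54, adjusted p = 0.000497). Of all genes, 20.5% were higher with no overlap in this comparison, and 4 of the 53 members were (Ccl3, Ccl4, Ccr1 and Cxcl16).

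In paraspinal subgroups 1 and 2 Ccl4 had 0.373, 0.0, 1.02 and 1.47 CPM, 1.69 higher than in neurofibroma (SE 0.72, adjusted p = 0.0463). This call was lost in 14 of 19 alternatives. Among these were RLE scaling, DESeq2, limma-voom and the fits without either subgroup 2 library or without neurofibroma library 8 or 9. Ccl5 (RANTES, which attracts T cells and monocytes) had 6.65, 2.96, 201.6 and 24.3 CPM in GEM-PNST libraries and 0.0857 to 5.55 CPM in neurofibroma. Library 3, with its T cell and salivary gland transcripts, was far above the rest, and library 2 lay within the neurofibroma range. The log2 fold change was 5.12 (SE 0.77, adjusted p = 1.59e-05) and passed in every alternative, at its smallest 2.72. Ccl8 had 6.72, 4.68, 329.9 and 76.8 CPM in GEM-PNST libraries against 0.257 to 10.4 CPM in neurofibroma (median 1.67). In paraspinal subgroup 1 it had 3.61 and 1.33 CPM, within the neurofibroma range, and in subgroup 2 it had 65.4 and 20 CPM. It was higher than in neurofibroma by 5.24 (SE 0.88, adjusted p = 5.09e-05) in GEM-PNST and by 3.05 (SE 0.79, adjusted p = 0.003) in paraspinal libraries. The paraspinal difference was -0.12 with subgroup 1 alone.

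Ccl6, a myeloid ligand found in rodents, had 82.7, 24.2, 194.3 and 83.0 CPM in GEM-PNST libraries and 1.46 to 81.8 CPM in neurofibroma. The highest neurofibroma, library 4, overlapped the GEM-PNST range, and the difference was 2.73 (SE 0.75, adjusted p = 0.00364). Ccl7, which attracts monocytes through Ccr2, had 11.2 and 8.84 CPM in paraspinal subgroup 1, 71.6 and 53.8 CPM in subgroup 2 and 1.8 to 25.1 CPM in neurofibroma (median 8.45). Its paraspinal difference of 1.92 (SE 0.58, adjusted p = 0.00832) came down to 0.07 with subgroup 1 alone. Ccl2, the main attractant of Ccr2-bearing monocytes, Ccl9 and Ccl12 passed in no comparison. Ccl2 had 0.403, 79.8, 27.4 and 179.6 CPM over the GEM-PNST libraries, 13.0 to 101.9 CPM in paraspinal and 2.66 to 85.3 CPM in neurofibroma. Ccl9 was most abundant in paraspinal subgroup 2 (502.5 and 193.6 CPM, against 11.9 and 9.64 CPM in subgroup 1), with 5.31 to 223.1 CPM in neurofibroma.

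Ligands of eosinophils and T cells moved in both directions. Ccl11 (chromosome 11, 82057823 to 82062955) had 0.0672, 2.64, 63.3 and 29.4 CPM in GEM-PNST libraries, 115.4, 84.9, 378.2 and 402.5 CPM in paraspinal subgroups 1 and 2, and 23.4 to 312.6 CPM in neurofibroma (median 166.4). All 4 GEM-PNST libraries lay below all paraspinal ones, but the difference of -3.37 did not pass (SE 1.37, adjusted p = 0.115). Against neurofibroma it was lower, by -2.86 (SE 0.99, adjusted p = 0.0157), a call that was lost against neurofibroma libraries 7 to 12 alone (adjusted p = 0.124). Ccl24, another eotaxin, had 35.4 CPM in paraspinal subgroup 2 library 1 and at most 1.76 CPM in the other paraspinal libraries, and its paraspinal difference of 3.87 (SE 0.87, adjusted p = 0.000908) was 0.57 without that library (adjusted p = 0.542).

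Ccl17 and Ccl22, ligands of Ccr4 made by dendritic cells and macrophages, followed single libraries. Ccl22 (chromosome 8, 94745590 to 94751699) had 5.23, 0.442, 50.2 and 2.02 CPM in paraspinal subgroups 1 and 2, 45.9, 0.0, 31.0 and 2.25 CPM in GEM-PNST libraries and 0.301 to 6.26 CPM in neurofibroma. Ccl17 (chromosome 8, 94810453 to 94812036) had 0.83, 0.0442, 20.4 and 0.33 CPM in paraspinal libraries, 0.403, 0.484, 30.3 and 0.724 CPM in GEM-PNST libraries and 0.101 to 1.97 CPM in neurofibroma. Both were high in paraspinal subgroup 2 library 1 and in GEM-PNST library 3, and Ccl22 also in GEM-PNST library 1, the library high in dendritic cell markers. They were higher than in neurofibroma in paraspinal (Ccl17 by 2.94, SE 0.85, Ccl22 by 2.49, SE 0.78) and in GEM-PNST libraries (3.51, SE 0.83, and 2.95, SE 0.84). Without paraspinal subgroup 2 library 1 the first pair of differences was -0.77 and -0.01, and without GEM-PNST libraries 1 and 3 the second was -0.23 and -1.3. Ccl1, a ligand of Ccr8, had counts in GEM-PNST libraries 1 (1.14 CPM) and 3 (4.45 CPM) and 0.0 in the other 2, and at most 0.218 CPM in neurofibroma (log2 fold change 4.35, SE 0.80, adjusted p = 1.29e-05).

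Homeostatic and epithelial ligands, which place cells in resting tissue, split. Cxcl14, an epithelial and fibroblast ligand of macrophage precursors (chromosome 13, 56288643 to 56296551), had 69.0, 39.1, 899.4 and 224.4 CPM in paraspinal subgroups 1 and 2 and 0.857 to 19.5 CPM in neurofibroma (median 11.3). Every paraspinal library lay above every neurofibroma, with a log2 fold change of 4.93 (SE 0.70, adjusted p = 1.14e-05). Of all genes, 17.8% were higher with no overlap in this comparison, and 2 of the 53 members were (Cxcl14 and Cx3cl1). In GEM-PNST libraries Cxcl14 had 0.269, 6.57, 2174.9 and 111.8 CPM, on both sides of the neurofibroma range. Its difference of 5.80 (SE 1.09, adjusted p = 0.00015) came down to 1.95 without library 3, where the call was lost (adjusted p = 0.0674).

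Cxcl12, the ligand of Cxcr4 and Ackr3 (chromosome 6, 117168535 to 117181367), was similar in paraspinal (36.1 to 64.4 CPM) and neurofibroma (26.9 to 103.6 CPM) libraries, with a difference of -0.03 (SE 0.28, adjusted p = 0.929). In GEM-PNST libraries it had 5.65, 40.6, 200.2 and 704.0 CPM, higher than in neurofibroma by 2.16 (SE 0.60, adjusted p = 0.00383), though library 1 lay below all neurofibromas. Without GEM-PNST library 4 this call was lost. Cxcl13, which attracts B cells, and Ccl25, a gut and thymus ligand, passed in no comparison. Cxcl13 had 0.403, 3.66, 54.6 and 59.1 CPM in GEM-PNST and 0.171 to 59.7 CPM in neurofibroma libraries.

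Of the low members of this group, Ccl28, Ccl19 and Cxcl15 were lower in both other stages than in neurofibroma, and Cxcl17 was lower in paraspinal libraries. Ccl28, a mucosal ligand, had 2.26 to 8.74 CPM in neurofibroma (median 4.46), 0.166 to 0.806 CPM in paraspinal, and 0.0, 2.42, 1.93 and 0.0 CPM in GEM-PNST libraries. It was lower than in neurofibroma by -3.21 (SE 0.42) in paraspinal and by -2.04 (SE 0.68) in GEM-PNST libraries, the latter call lost against either neurofibroma run alone. Ccl19, a ligand of Ccr7, had 318 counts over the neurofibroma libraries, 1 in all paraspinal and 3 in all GEM-PNST libraries. The ratio was 185 for neurofibroma against paraspinal (95% counting interval 33 to 7330) and 43.1 for neurofibroma against GEM-PNST (14.6 to 210.0). The Ccl19 gene has near-identical copies on the same chromosome, so its counts depend on how shared reads were assigned. Cxcl15, a lung ligand, had 136 counts in neurofibroma and 0 in paraspinal libraries, which sets it at least 26.4-fold lower there if 3 counts over all paraspinal libraries are taken as the floor. It had 1 count in GEM-PNST libraries, a ratio of 55.3 (9.76 to 2200.0). Cxcl17, a mucosal ligand, had 87 counts in neurofibroma and 0 in paraspinal libraries (at least 16.9-fold lower), while all 142 of its GEM-PNST counts lay in library 3. Both kinds of limit cover counting error only.

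Cxcr2 ligands, the attractants of neutrophils, were low throughout. Cxcl1 had 0.705, 0.663, 3.75 and 2.86 CPM in paraspinal subgroups 1 and 2, 0.336, 10, 0.148 and 0.0804 CPM in GEM-PNST libraries and 0.0658 to 1.36 CPM in neurofibroma. It was higher than in neurofibroma in paraspinal (1.61, SE 0.49, adjusted p = 0.00855) and GEM-PNST libraries (2.03, SE 0.77, adjusted p = 0.0248), the latter through library 2 alone, since without it the difference was -1.73. The paraspinal call was lost without subgroup 2 library 1 (1.13, adjusted p = 0.0793), and the difference was 0.10 with subgroup 1 alone. Cxcl2 and Cxcl5 passed in no comparison and stayed at or below 3.26 CPM.

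The interferon-induced ligands of Cxcr3 differed from each other although their genes are neighbors. Cxcl11 (chromosome 5, 92359544 to 92365485) had 0.0, 0.0538, 0.495 and 0.0804 CPM in GEM-PNST libraries, 0.871, 1.9, 0.827 and 1.76 CPM in paraspinal libraries and 1.25 to 8.16 CPM in neurofibroma (median 2.18). Every GEM-PNST library lay below every library of the other stages. It was lower by -2.98 against paraspinal (SE 0.93, adjusted p = 0.0492), a call lost without any single paraspinal library and without GEM-PNST library 1, 2 or 4, and by -3.93 against neurofibroma (SE 0.72, adjusted p = 8.83e-05). Cxcl9, in contrast, had 4.64, 0.269, 144.6 and 21.4 CPM in GEM-PNST libraries, 3.49, 0.354, 0.633 and 0.0366 CPM in paraspinal libraries and 0.257 to 43.9 CPM in neurofibroma (median 5.0). It was lower in paraspinal (-2.87, SE 1.15, adjusted p = 0.0391) and higher in GEM-PNST libraries (2.36, SE 1.00, adjusted p = 0.0411) than in neurofibroma, the second call lost without GEM-PNST library 3 (0.06, adjusted p = 0.965) and without neurofibroma library 4, 8 or 9. The first was lost without either subgroup 2 library or subgroup 1 library 2. Cxcl10, with the motif matches shown above, passed in no comparison, at 0.0672, 9.1, 35.5 and 25.6 CPM in GEM-PNST, 6.81 to 13.2 CPM in paraspinal and 2.72 to 39.0 CPM in neurofibroma libraries.

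Cxcl10 and Cxcl11 overlap Art3, a gene on the opposite strand, which moved in the same direction as Cxcl11. Art3 had 90.2 to 292.8 CPM in neurofibroma, 167.7 to 268.0 CPM in paraspinal and 0.161 to 115.5 CPM in GEM-PNST libraries. The library kit does not mark strand, so reads of the pair in the overlap cannot be told apart.

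Cxcl16, Cx3cl1 and Xcl1, the membrane-bound and C ligands, were all higher in GEM-PNST than in neurofibroma libraries, and Cxcl16 and Xcl1 were also higher than in paraspinal libraries. Cxcl16, the ligand of Cxcr6 and a scavenger receptor of macrophages (chromosome 11, 70453983 to 70459984), had 532.7, 101.7, 188.6 and 203.5 CPM in GEM-PNST libraries, 40.8, 15.4, 55.2 and 45.4 CPM in paraspinal subgroups 1 and 2 and 4.03 to 52.9 CPM in neurofibroma. Every GEM-PNST library lay above every library of the other stages. It was higher by 2.62 than in paraspinal (SE 0.55, adjusted p = 0.0194) and by 3.61 than in neurofibroma libraries (SE 0.55, adjusted p = 1.64e-05). Of all genes, 10.9% were higher with no overlap between GEM-PNST and paraspinal libraries, and 4 of the 53 members were (Ackr2, Ccl3, Ccl4 and Cxcl16). The paraspinal call was lost without either subgroup 1 library and with either subgroup alone. Cxcl16 overlaps Zmynd15 on the opposite strand, which had 35.8 to 425.3 CPM in GEM-PNST, 3.32 to 8.22 CPM in paraspinal and 0.343 to 11.1 CPM in neurofibroma libraries.

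Cx3cl1 (fractalkine, chromosome 8, 94772009 to 94782427), which is tethered on endothelium and neurons and binds Cx3cr1, had 30, 26.5, 77.2 and 49.6 CPM in paraspinal subgroups 1 and 2 and 4.71 to 15.9 CPM in neurofibroma. The stages did not overlap, and the difference of 2.21 (SE 0.30, adjusted p = 6.74e-06) passed in every alternative. In GEM-PNST libraries it had 13.4, 92.7, 67.7 and 119.9 CPM, with library 1 inside the neurofibroma range, and it was higher than in neurofibroma by 2.87 (SE 0.37, adjusted p = 2.48e-06). Between GEM-PNST and paraspinal libraries it differed by 0.64 (SE 0.61, adjusted p = 0.471). Xcl1 (lymphotactin, made by T and NK cells) had 2.22, 0.0, 48.4 and 1.93 CPM in GEM-PNST libraries and at most 0.415 CPM in paraspinal and 1.06 CPM in neurofibroma libraries. It was higher by 6.05 than in paraspinal (SE 1.77, adjusted p = 0.0451) and by 5.37 than in neurofibroma libraries (SE 0.86, adjusted p = 1.44e-05). Both calls were lost without GEM-PNST libraries 1 and 3 together, and the paraspinal call also without any single paraspinal library, without GEM-PNST library 3 alone (2.73, adjusted p = 0.131) and without library 4 (adjusted p = 0.0584).

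**Figure D3:**
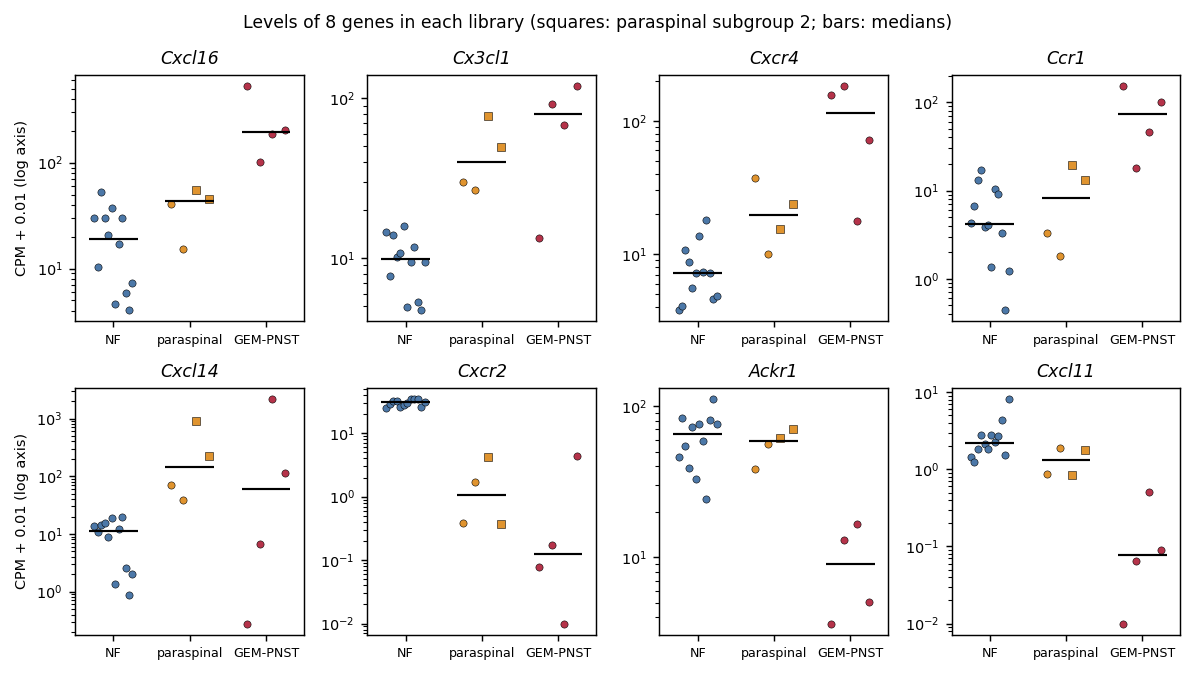
CPM of 8 genes in each library on a log axis (0.01 CPM added), by stage, with black bars at the medians and squares for paraspinal subgroup 2. Cxcl16 is highest in the GEM-PNST libraries, and Ccr1 in all of them but library 2. Cxcr2 is at 24.8 to 34.6 CPM in neurofibroma and at most 4.34 CPM elsewhere, and Ackr1 and Cxcl11 are lowest in GEM-PNST libraries.

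Among receptors of myeloid cells, Ccr1 and Cxcr2 passed and the other 4 tested members passed in no comparison. Ccr1, the receptor of Ccl3 and Ccl5 (chromosome 9, 123962124 to 123968692), had 154.0, 18.2, 45.9 and 101.3 CPM in GEM-PNST libraries, 3.28, 1.81, 19.2 and 13.1 CPM in paraspinal subgroups 1 and 2 and 0.429 to 16.9 CPM in neurofibroma (median 4.15). GEM-PNST library 2 lay just below the highest paraspinal library and above every neurofibroma. It was higher by 3.02 than in paraspinal (SE 0.86, adjusted p = 0.0463) and by 3.66 than in neurofibroma libraries (SE 0.62, adjusted p = 5.69e-05). The paraspinal call was lost without GEM-PNST library 1, 3 or 4 and without 3 of the 4 paraspinal libraries in turn. Summed macrophage markers were also higher in 3 of the 4 GEM-PNST libraries than in any other library, and their part in this difference was not tested.

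Cxcr2, the neutrophil receptor of Cxcl1, Cxcl2 and Cxcl5 (chromosome 1, 74153989 to 74161246), varied little between neurofibromas. It had 24.8 to 34.6 CPM in the 12 neurofibroma libraries (median 30.7), 0.373, 1.72, 4.28 and 0.366 CPM in paraspinal subgroups 1 and 2, and 0.0672, 0.161, 0.0 and 4.34 CPM in GEM-PNST libraries. No neurofibroma overlapped any other library, and the level was alike in both neurofibroma runs (medians 28.8 and 32.8 CPM). It was lower by -4.19 in paraspinal (SE 0.50, adjusted p = 1.55e-06) and by -4.82 in GEM-PNST (SE 0.86, adjusted p = 8.42e-05) than in neurofibroma libraries, and both calls passed in every alternative that gave a value. Neutrophils are the main known carriers of Cxcr2. Their markers summed to 22.2 to 272.1 CPM in neurofibroma, 49.5 to 299.9 CPM in paraspinal and 24.7 to 173.3 CPM in GEM-PNST libraries. The part of neutrophils in the Cxcr2 differences was not tested. No other annotated gene overlaps Cxcr2.

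Ccr2, the receptor of inflammatory monocytes, had 6.72, 0.269, 174.5 and 67.2 CPM in GEM-PNST, 20.6 to 43.5 CPM in paraspinal and 5.48 to 209.7 CPM in neurofibroma libraries. Cx3cr1, the receptor of resident macrophages, had 4.5, 8.45, 129.7 and 178.4 CPM in GEM-PNST, 29.4 to 92.9 CPM in paraspinal and 3.94 to 82.8 CPM in neurofibroma libraries. Both were low in GEM-PNST libraries 1 and 2 and high in 3 and 4. Ccr3, the eotaxin receptor, stayed at or below 2.12 CPM.

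Receptors of lymphocytes and dendritic cells were mostly lower in paraspinal than in neurofibroma libraries (Ccr4, Ccr6, Ccr9, Cxcr5, Cxcr6 and Xcr1 lower, Ccr7 higher, of 10). Cxcr6, the receptor of Cxcl16 on T and NK cells, had 0.664, 0.84, 0.0973 and 0.513 CPM in paraspinal subgroups 1 and 2 and 1.2 to 6.88 CPM in neurofibroma, a difference of -2.89 (SE 0.47, adjusted p = 5.33e-05). Ccr9, the gut-homing receptor, had 0.0366 to 0.31 CPM in paraspinal and 1.2 to 87.3 CPM in neurofibroma libraries, a difference of -6.36 (SE 1.46, adjusted p = 0.00102). Its highest values, 44.5 and 87.3 CPM, were in neurofibroma libraries 4 and 7, which also had the highest sums of T and NK cell markers (189.7 and 340.4 CPM, against 11.4 to 48.5 CPM in the others). In GEM-PNST libraries Ccr9 had 4.1, 0.0, 2.18 and 1.61 CPM, -2.90 against neurofibroma (SE 1.24, adjusted p = 0.044), a call lost without neurofibroma library 4 and without GEM-PNST library 2, 3 or 4. Xcr1, the receptor of cross-presenting dendritic cells, had 0.884 to 2.74 CPM in paraspinal and 3.02 to 10.1 CPM in neurofibroma libraries, a difference of -1.70 (SE 0.39, adjusted p = 0.00111). These 3 did not overlap, nor did Ccr4 and Cxcr5. In all, 10 of the 53 members were lower with no overlap, where 17.7% of all genes were.

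Cxcr5, the B cell receptor of Cxcl13, had 0.0 to 0.083 CPM in paraspinal and 0.132 to 4.29 CPM in neurofibroma libraries (-4.43, SE 1.00, adjusted p = 0.000579). B cell markers summed to 2.74 to 6.74 CPM in paraspinal and 9.54 to 118.4 CPM in neurofibroma libraries, and T and NK cell markers to 3.36 to 11.2 and 11.4 to 340.4 CPM. Ccr4 had 177 counts over the neurofibroma and 1 over the paraspinal libraries, a ratio of 103.0 (95% counting interval 18.2 to 4090.0). Ccr6, of Th17 and B cells, had 143 and 3 counts, a ratio of 27.7 (9.3 to 136.0), and 2 counts in GEM-PNST libraries, a ratio of 29.1 (7.9 to 242.0). Ccr9 and Cxcr6 overlap other genes that were also lower, Lztfl1 (32.3 to 54.4 CPM in neurofibroma, 15.4 to 22.5 CPM in paraspinal) and Fyco1 (66.7 to 186.5 and 29.7 to 68.8 CPM), both on the opposite strand.

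In GEM-PNST libraries the same receptors followed the library. Xcr1 (chromosome 9, 123852315 to 123862029) had 340.1, 0.0, 44.8 and 4.34 CPM, and Cxcr3, the receptor of Cxcl9 to Cxcl11, had 135.8, 0.915, 33.2 and 5.55 CPM. Both were highest in library 1, as were 6 of the 8 dendritic cell markers, among them Clec9a (333.1, 0.0, 76.1 and 6.68 CPM). The other markers, Cd209a (0.269 and 99.2 CPM in libraries 1 and 3) and Clec10a (11.6 and 68.8 CPM), were highest in library 3. The 14 T and NK cell markers were highest in library 3 except Gzma (5.44 CPM in library 1, 1.19 CPM in library 3). The part of dendritic, T and NK cells in the Xcr1 and Cxcr3 levels was not tested. Cxcr3 was higher by 5.05 than in paraspinal (SE 1.39, adjusted p = 0.0429) and by 5.30 than in neurofibroma libraries (SE 0.88, adjusted p = 4.46e-05). Xcr1 was higher by 3.95 than in neurofibroma (SE 0.84, adjusted p = 0.000477). Without libraries 1 and 3 the Xcr1 difference was -1.62 and that of Cxcr3 was 1.48, and both calls were lost. The paraspinal call of Cxcr3 was lost without any single paraspinal library and without GEM-PNST library 1, 3 or 4. Cxcr5 had 0.0672, 0.0, 1.58 and 3.38 CPM, higher than in paraspinal libraries by 4.67 (SE 1.29, adjusted p = 0.0297). That call was lost without any single paraspinal library and without GEM-PNST library 4. B cell markers summed to 1.48, 0.807, 20.7 and 98.2 CPM in the same libraries.

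Ccr7, which guides dendritic and naive T cells to lymph nodes, had 0.134, 0.7, 42.9 and 8.04 CPM in GEM-PNST libraries, 3.44, 0.31, 10.8 and 2.6 CPM in paraspinal subgroups 1 and 2 and 0.0 to 2.81 CPM in neurofibroma. It was higher than in neurofibroma in GEM-PNST (3.53, SE 0.90, adjusted p = 0.00217) and paraspinal libraries (1.93, SE 0.73, adjusted p = 0.0294). The first call was lost without GEM-PNST library 3 and the second without paraspinal subgroup 2 library 1. Ccr10, a skin-homing receptor, was lower in GEM-PNST libraries (0.134 to 0.402 CPM) than in neurofibroma (0.343 to 2.06 CPM) by -2.45 (SE 0.48, adjusted p = 0.000172). The ranges overlapped slightly, and the call passed in every alternative. Ccr10 overlaps Cntnap1 on the opposite strand, and the part of reads from Cntnap1 in this difference was not tested. Ccr8 passed in no comparison and stayed at or below 0.742 CPM.

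Cxcr4, the receptor of Cxcl12 and a receptor of leukocytes, endothelium and many tumor cells (chromosome 1, 128588199 to 128592293), was higher in each stage with Ink4a/Arf+/- than in neurofibroma. It had 155.6, 183.2, 17.6 and 72.3 CPM in GEM-PNST libraries, 37.4, 9.95, 15.5 and 23.6 CPM in paraspinal subgroups 1 and 2 and 3.78 to 17.9 CPM in neurofibroma (median 7.24). GEM-PNST library 3 lay within both other ranges. The difference was 3.75 (SE 0.42, adjusted p = 5.96e-07) for GEM-PNST and 1.43 (SE 0.36, adjusted p = 0.00255) for paraspinal against neurofibroma, and both passed in every alternative. Between GEM-PNST and paraspinal libraries it was 2.20 and did not pass (SE 0.66, adjusted p = 0.0536). Macrophage markers summed to 6098.9, 1733.9, 4593.1 and 6348.7 CPM in the same GEM-PNST libraries, and their part in the Cxcr4 differences was not tested.

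Atypical receptors differed among themselves. Ackr1, which presents chemokines on venules (chromosome 1, 173331886 to 173333750), had 3.63, 13.0, 16.5 and 5.07 CPM in GEM-PNST libraries, 38.4, 55.9, 61.8 and 70.4 CPM in paraspinal subgroups 1 and 2 and 24.4 to 111.2 CPM in neurofibroma. Every GEM-PNST library lay below every other library. It was lower by -2.62 against paraspinal (SE 0.51, adjusted p = 0.0138) and by -2.72 against neurofibroma (SE 0.45, adjusted p = 3.94e-05). The paraspinal call was lost with either subgroup alone and passed in all other alternatives. Of all genes, 16.4% were lower with no overlap between GEM-PNST and paraspinal libraries, and 3 of the 53 members were (Ackr1, Ccl11 and Cxcl11). Endothelial markers summed to 101.3 to 521.3 CPM in GEM-PNST, 167.7 to 304.4 CPM in paraspinal and 112.4 to 607.1 CPM in neurofibroma libraries. Of these 8 markers, Tek and Flt1 were lower and Cldn5 higher in GEM-PNST than in neurofibroma libraries, and none passed against paraspinal. The part of endothelial cells in the Ackr1 differences was not tested. Ackr1 overlaps Cadm3 on the same strand, which had 1.93 to 46.1 CPM in GEM-PNST, 206.5 to 515.5 CPM in paraspinal and 150.4 to 580.3 CPM in neurofibroma libraries.

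Ackr2, a scavenger of inflammatory CC ligands, had 0.336, 0.915, 1.48 and 3.94 CPM in GEM-PNST libraries and 0.0973 to 0.332 CPM in paraspinal libraries, 3.06 higher (SE 0.81, adjusted p = 0.0339), at low counts (101 and 18). The call was lost without any single paraspinal library and without GEM-PNST library 4. Ackr4, which removes Ccl19 and other homeostatic ligands, had 0.207 to 0.73 CPM in paraspinal and 0.478 to 4.67 CPM in neurofibroma libraries, -2.03 (SE 0.53, adjusted p = 0.00304). Ackr3, which takes up Cxcl12, had 0.269, 43.4, 7.13 and 14 CPM in GEM-PNST, 10.3 to 20.2 CPM in paraspinal and 4.93 to 49.1 CPM in neurofibroma libraries and passed in no comparison. Neither did Ccrl2, which binds chemerin (0.806 to 9.75 CPM over all libraries).

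The GEM-PNST libraries differed from each other more than the paraspinal ones for 41 of the 53 members. The median range over 4 libraries, on the log2 CPM scale, was 4.82 in GEM-PNST and 1.96 in paraspinal. These ranges were not computed over all genes, so whether the wider spread is particular to the members was not tested. Library 3 was the highest of its stage for 24 members, library 4 for 17 and libraries 1 and 2 for 6 each. Library 1 held 87.4% of the summed Xcr1 level of the stage and 77.4% of Cxcr3, and 78.5% of the dendritic cell marker sum. Library 3 held 94.8% of Cxcl14, 92.1% of Xcl1 and 85.6% of Ccl5, beside 70.8% of the T and NK cell and 100% of the salivary gland marker sum. Library 2 held 67.0% of Ackr3 and 42.7% of Cxcr4, and library 4 held 74.1% of Cxcl12.

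**Figure D4:**
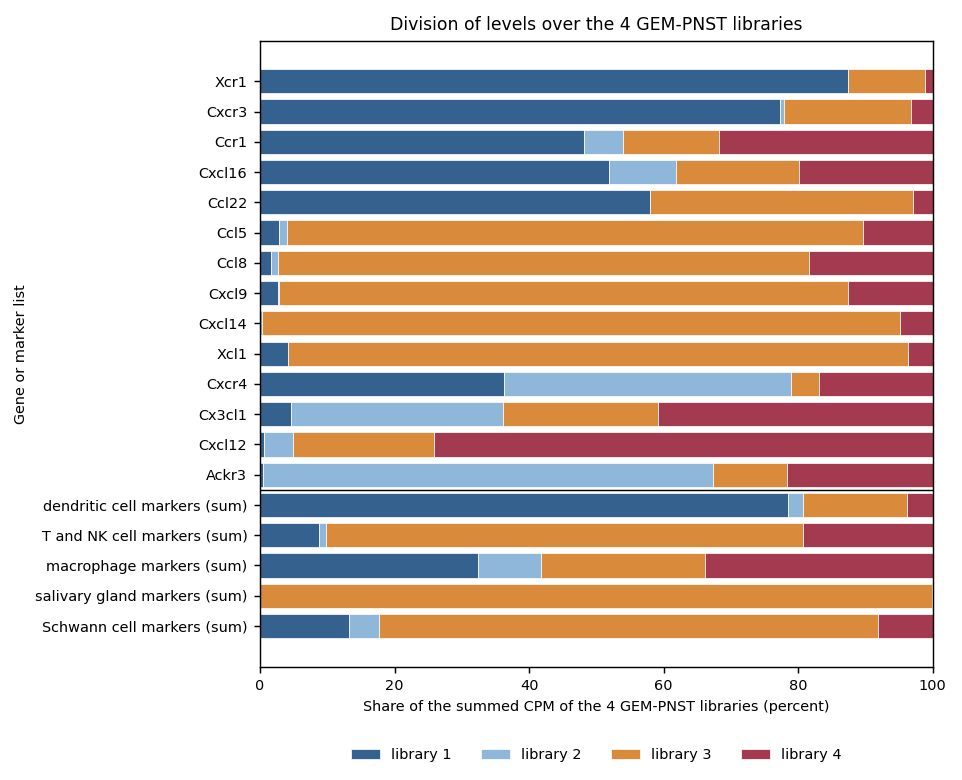
Share of the summed CPM of the 4 GEM-PNST libraries that lies in each library (stacked bars, percent), for 14 genes above the line and 5 marker lists below it. Xcr1 and the dendritic cell markers lie mostly in library 1 (87.4% and 78.5%), and Cxcl14, Xcl1 and Ccl5 mostly in library 3 (94.8%, 92.1% and 85.6%).

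Within the paraspinal tumors, subgroup 2 was compared with subgroup 1 as a description, since the labels call them sub-clusters. No gene passed by edgeR (0.0% of all genes tested), with 2530 genes and 5 members at an unadjusted p under 0.05, while 3 members and 1222 genes passed by DESeq2, and 9 members and 5316 genes by limma-voom. Both subgroup 2 libraries lay above both subgroup 1 libraries for 24 of the 53 members and below for 1 (Cxcr6), where 34.7% of all genes were higher and 34.8% lower. The 24 include 8 of the 9 CC ligands of myeloid cells and all 3 tested Cxcr2 ligands. Of the 5 members at an unadjusted p under 0.05, Ccl24 differed by 5.06 (SE 1.59), Ccl9 by 5.0 (SE 1.33), Ccl6 by 4.08 (SE 0.98) and Ccr1 by 2.64 (SE 0.90). Their adjusted p by edgeR ran from 0.191 to 0.256. Cxcl2, the fifth, had 33 counts against 1, a ratio of 32.2 (95% counting interval 5.4 to 1310.0), with an adjusted p of 0.279. Macrophage markers summed to 1216.2 and 630.4 CPM in subgroup 1 and to 2177.1 and 1805.0 CPM in subgroup 2.

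**Figure D5:**
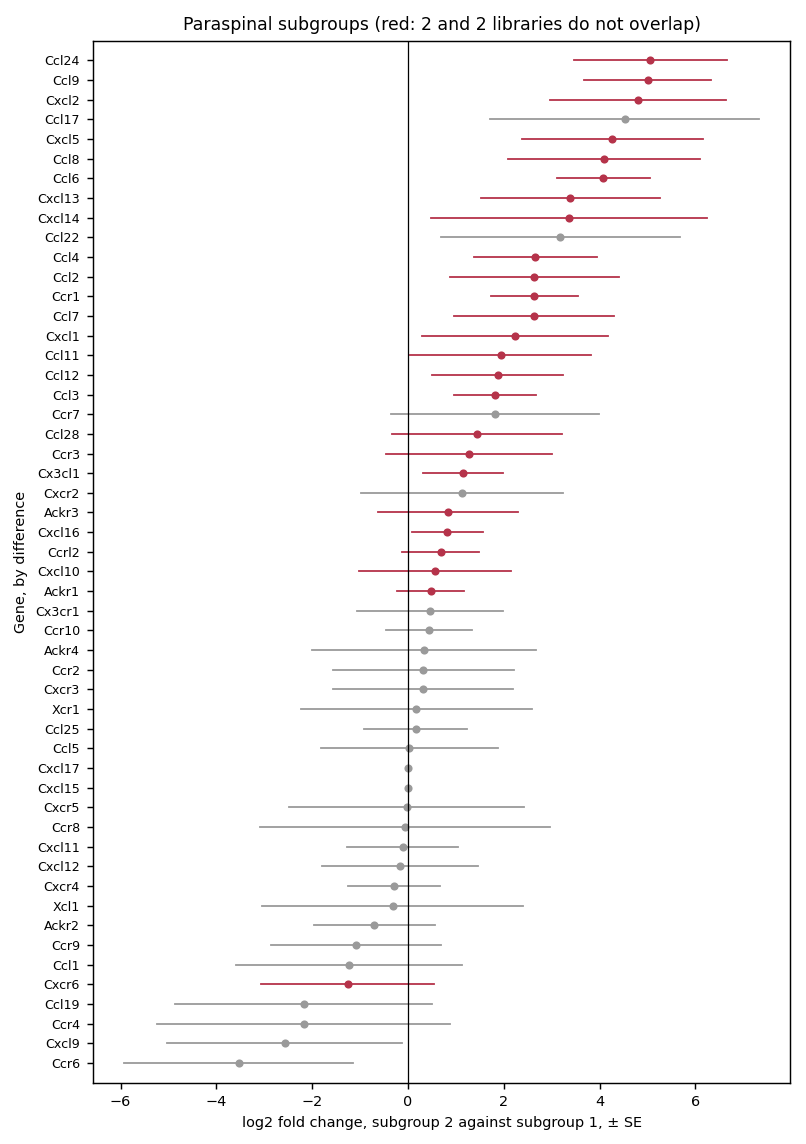
log2 fold change (points) with its standard error (bars) of 52 tested genes in paraspinal subgroup 2 against subgroup 1, with 2 libraries each. Red marks the 25 genes whose libraries do not overlap, 24 of them to the right of 0, and none passed the threshold.

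The 2 neurofibroma runs also differed in level. The median of libraries 1 to 6 was at least 2-fold that of libraries 7 to 12 for 26 of the 53 members, and the reverse held for 3, although no member separated the runs fully. These counts were not made over all genes, so whether the run difference is particular to the members was not tested. Ccl12 had medians of 14.2 and 1.33 CPM, Ccl8 3.53 and 0.504 CPM and Cx3cr1 52.4 and 8.79 CPM. Macrophage markers summed to a median of 1101.4 CPM in the first and 473.2 CPM in the second run. The neurofibroma run that serves as the reference changed the calls. With run 1 alone 4 members were higher and 17 lower in paraspinal libraries, and with run 2 alone 15 and 14. Over all genes, run 1 alone gave 4801 higher and 5135 lower of 17255 tested. Run 2 alone gave 4600 and 4711 of 17254.

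Genes of the pathway around the receptors were counted from 4 lists. Of 18 tested inducers of chemokine transcription (NF-kappaB, interferon and Toll-like receptor genes), 12 were higher and 1 lower in GEM-PNST than in neurofibroma libraries (35.4% and 38.8% of all genes), 7 and 3 in paraspinal than in neurofibroma (30.6% and 30.2%), and 1 and 0 in GEM-PNST than in paraspinal libraries (5.5% and 10.9%). Nfkbia, the inhibitor that NF-kappaB itself induces, had 334.7, 150.8, 142.2 and 158.6 CPM over the GEM-PNST libraries, 59.2 to 117.2 CPM in paraspinal and 3.69 to 13.9 CPM in neurofibroma, and it was higher in all 3 comparisons (4.43, SE 0.28, 3.08, SE 0.26, and 1.26, SE 0.35). Relb (3.33, SE 0.27), Nfkb2 (3.27, SE 0.31) and the adaptor Myd88 (3.08, SE 0.28) were also higher in GEM-PNST than in neurofibroma libraries, and the lipopolysaccharide receptor Tlr4 was lower (-1.43, SE 0.42).

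Of 11 genes that end receptor signaling (kinases, arrestins and RGS proteins), 8 were higher and 1 lower in GEM-PNST than in neurofibroma libraries (35.4% and 38.8% of all genes), 5 and 0 in paraspinal than in neurofibroma, and 2 and 0 in GEM-PNST than in paraspinal libraries. Rgs1, a brake on G protein signaling in leukocytes, had 81.4, 9.31, 14.7 and 15.0 CPM over the GEM-PNST libraries, 0.177 to 2.63 CPM in paraspinal and 0.0 to 2.52 CPM in neurofibroma, without overlap (4.17, SE 0.94, and 4.53, SE 0.68). Against neurofibroma Rgs14 (4.20, SE 0.58) and the arrestin Arrb2 (3.12, SE 0.30) were also higher in GEM-PNST libraries, and Arrb1 was lower (-0.84, SE 0.31). Rgs2 was higher in GEM-PNST than in paraspinal libraries by 2.90 (SE 0.68, adjusted p = 0.0271). Among 16 signaling genes 6 were higher and 2 lower in GEM-PNST than in neurofibroma libraries, for higher calls near the share over all genes, the higher ones including the hematopoietic genes Was (3.16, SE 0.48), Vav1 (2.92, SE 0.55) and Rac2 (2.75, SE 0.47). In the other comparisons 1 was higher and 4 lower (paraspinal against neurofibroma) and 2 higher and 1 lower (GEM-PNST against paraspinal). Gnai2, the inhibitory G protein subunit, had 1671.8, 923.2, 665.1 and 728.8 CPM in GEM-PNST, 342.3 to 483.8 CPM in paraspinal and 154.4 to 232.4 CPM in neurofibroma libraries, so that the 3 stages did not overlap. Of 12 surface anchors and proteases that hold or cut chemokines, 4 were higher, again near that share, and 1 lower in GEM-PNST and 3 and 0 in paraspinal than in neurofibroma libraries, and none passed between GEM-PNST and paraspinal. The proteases Mmp9 (3.67, SE 1.05) and Mmp14 (3.52, SE 0.50), the heparan sulfate carrier Sdc1 (2.75, SE 0.36) and the chemokine-trimming protease Dpp4 (1.68, SE 0.62) were higher in GEM-PNST than in neurofibroma libraries. Adam10, which sheds Cxcl16 and Cx3cl1 from the cell surface, was lower (-1.65, SE 0.40).

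The 4 tested family genes outside the symbol rule gave 1 higher and 2 lower in GEM-PNST than in paraspinal libraries (5.5% and 10.9% of all genes). Ccl27a, a skin ligand, had 1.61 to 8.51 CPM in GEM-PNST and 10.2 to 18.5 CPM in paraspinal libraries (-1.96, SE 0.54, adjusted p = 0.0432). Cklf, a chemokine-like factor, had 12.4 to 21.5 and 5.13 to 8.54 CPM (1.19, SE 0.34, adjusted p = 0.0456). Ppbp, a platelet ligand, had 0.134 to 0.402 and 0.747 to 1.06 CPM (-1.80, SE 0.52, adjusted p = 0.0441). Pf4, another platelet ligand also found in macrophages, was higher in GEM-PNST than in neurofibroma libraries (1.89, SE 0.43, adjusted p = 0.00077). Cklf was also higher and Ppbp lower in that comparison, where 35.4% and 38.8% of all genes were called. Between paraspinal and neurofibroma libraries only Ccl27a passed, and it was higher (30.6% of all genes were).

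By position, of the 5 CC ligands on chromosome 11 between 83525778 and 83664683, 4 were higher in GEM-PNST than in neurofibroma libraries (Ccl5, Ccl6, Ccl3 and Ccl4). Of the 6 between 82035571 and 82305690, 2 were higher and 1 lower. Over all genes 35.4% were higher and 38.8% lower in this comparison, so 2 higher of 6 is near the share over all genes. On GRCm38 17 of the 57 members overlap another annotated gene, and their counts depend on how reads in the overlap were assigned.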

How the data were processed

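RNA was extracted with a micro-scale column kit and made into Nextera XT libraries, which do not mark strand, per the labels' protocols. The authors deposited raw counts per gene for mm10. TopHat, HISAT2 and featureCounts are named in the submitters' processing notes, and neither annotation nor strand handling is given in the sources used here. Counts were tested as deposited with edgeR 4.0.16 (TMM scaling, filterByExpr, quasi-likelihood test, Benjamini-Hochberg adjustment over all tested genes), fitting only the stages compared. Paraspinal subgroups were fitted together with GEM-PNST to share the spread. A standard error is the absolute log2 fold change over the square root of F. The threshold was an adjusted p of 0.05. Alternatives were RLE scaling, other filters, DESeq2 1.42.0, limma-voom (limma 3.58.1), 1 fit over all libraries, a replicate block, left-out libraries, and single runs or subgroups. The older quasi-likelihood method and the fits without neurofibroma library 4 or without GEM-PNST libraries 1 and 3 were chosen after seeing the data. Named genes were the members past the threshold in a stage comparison, the most abundant of each role, and from each pathway list up to 4 genes past the threshold with the largest change. The members, gene lists and markers were chosen with earlier results of these data known. No 2 libraries of a group agreed within sampling noise (78 pairs, lowest chi-square per degree of freedom 22.63). In simulated data with known changes and the same group sizes, the test called many of the changed genes in both comparisons with neurofibroma and none between GEM-PNST and paraspinal or between the subgroups. Positions are from GENCODE M21 on GRCm38. The levels and tests of 1 member are not reported here, and the plots of all tested members leave it out.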

Additional observations from a re-analysis of the deposited data

Results flagged for a closer look

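Dixon's test was applied to 76 groups of 4 libraries and marked 8, where chance marks about 1 group in 20. In 6 of the 8 the other 3 libraries were at 0 counts, so that any count in 1 library decides the outcome, and these are given as values only. They are Cxcl17 (7.03 CPM) and Ccl19 (0.148 CPM) in GEM-PNST library 3, Cxcl15 (0.0804 CPM, a single count) in GEM-PNST library 4, and Ccl19 (0.0415 CPM), Ccr4 (0.0415 CPM) and Ccr6 (0.124 CPM) in paraspinal subgroup 1 library 1, each from 1 to 3 counts. In the other 2 groups, GEM-PNST library 3, the library with salivary gland transcripts, was far above the rest for Ccl17 (30.3 CPM), and GEM-PNST library 4 was above the rest for Ccr10 (0.402 CPM).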

How the results depend on the processing

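Of the member calls, 0 of 8 (GEM-PNST against paraspinal), 7 of 24 (paraspinal against neurofibroma) and 14 of 30 (GEM-PNST against neurofibroma) passed in every alternative. The replicate numbers do not pair the libraries (correlations of deviations from -0.241 to 0.166). With the replicate block, members called fell from 6 to 1 higher and moved from 2 to 4 lower in GEM-PNST against paraspinal, from 11 to 2 higher and 13 to 5 lower in paraspinal against neurofibroma, and from 20 to 10 higher in GEM-PNST against neurofibroma. Over all genes the replicate block gave 1243, 3307 and 8143 calls in the same order, where 2781, 10490 and 12813 were called without it.

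For GEM-PNST against paraspinal, members higher numbered 12 with DESeq2, 3 with limma-voom, 16 with all libraries in 1 fit, 1 with the older quasi-likelihood method, 2 against subgroup 1 alone and 0 against subgroup 2 alone. Members lower numbered 1 without the filter, 4 with all libraries, 1 with the older method and 0 against either subgroup alone. All genes called numbered 4708 with DESeq2, 7264 with all libraries, 1797 with the older method and 351 against subgroup 2 alone. Leaving out 1 library gave 0 to 10 higher and 1 to 2 lower members and 885 to 3041 genes. For paraspinal against neurofibroma, members higher numbered 7 with DESeq2, 3 with limma-voom, 4 against neurofibroma run 1 and 3 with subgroup 1 alone, and leaving out 1 library gave 3 to 14 higher and 12 to 14 lower members and 9317 to 10577 genes. For GEM-PNST against neurofibroma, leaving out 1 library gave 17 to 21 higher and 9 to 11 lower members and 12479 to 12789 genes. Between the subgroups, where edgeR called 0, DESeq2 called 3 members higher and 1222 genes, limma-voom 9 and 5316, and all libraries in 1 fit 3 and 1529. Leaving out 1 library gave 0.

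Signs changed for 11 gene comparisons. In GEM-PNST against paraspinal, Cxcr5 was -0.54 with the replicate block. In paraspinal against neurofibroma, Ccl17 was -0.77 and Ccl22 -0.01 without subgroup 2 library 1, and with subgroup 1 alone Ccl17 was -0.61, Ccl24 -0.21, Ccl4 -0.18 and Ccl8 -0.12. In GEM-PNST against neurofibroma, without libraries 1 and 3, Ccl1 was -2.97, Ccl17 -0.23, Ccl22 -1.3 and Xcr1 -1.62, Ccl17 was -0.4 without library 3, Xcr1 was -0.08 with limma-voom, and Cxcl1 was -0.92 with limma-voom, -0.34 with the block and -1.73 without library 2. The cause was not tested. Leaving out 1 library at a time, Ccl17 ranged from -0.77 to 3.41 and Ccl22 from -0.01 to 2.94 in paraspinal against neurofibroma, and Ccl17 from -0.4 to 3.93 and Cxcl1 from -1.73 to 2.41 in GEM-PNST against neurofibroma. RLE scaling moved the median log2 fold change of all genes from -0.15 to -0.29 in GEM-PNST against neurofibroma. Members of a few counts per library are limited by depth.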
